A study of Mus musculus with 22 samples.

Results

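The genes described are the 6 peroxiredoxins (Prdx1 to Prdx6), catalase (Cat), the gastrointestinal glutathione peroxidase Gpx2 and the superoxide dismutases Sod1 and Sod2, 10 of the 52636 genes measured. They were taken by symbol, and each symbol matched 1 gene. Cold atmospheric plasma (CAP) is an ionized gas that delivers reactive oxygen and nitrogen species to cells, and RNA-seq was used to ask how organoids of the mouse duodenum respond to it. Organoids are epithelial cultures grown from crypts in a gel. All were wild type and came from adult outbred CD1 mice, 2 months of age in the study's methods, and each line is 1 mouse. The untreated group held 1 library of each of lines 1, 2, 3 and 4 (n = 4). Each of 6 treated groups held 1 of lines 1, 2 and 4 (n = 3 per group), so that line 3 stands among the controls alone. For direct CAP, cultures were treated at day 1 and given new medium 30 min or 24 h later. Indirect CAP was medium taken from another treated culture, and plasma-activated medium (PAM) was medium treated without organoids. Both were given from day 1 or from day 2. In the study's description the medium given from day 2 had been made at day 1, and the groups of day 1 later received new medium. On the exposure the sources differ. The labels state 0.5 h for the groups of day 1, a shorter time than the methods do, and 24 h for those of day 2. Group names here follow the methods. The time at which the 30 min group was collected is not certain from the sources used.

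These enzymes share the removal of superoxide and of the peroxide it gives rise to. Superoxide dismutases turn superoxide into hydrogen peroxide, Sod1 in the cytosol with copper and zinc and Sod2 in mitochondria with manganese. Hydrogen peroxide is then broken down by catalase in peroxisomes, by peroxiredoxins and by glutathione peroxidases. Peroxiredoxins use a cysteine, which thioredoxin returns to its reduced form in most of them. Gpx2 is the glutathione peroxidase typical of the gut epithelium. The peroxiredoxins differ in place: Prdx1, Prdx2 and Prdx6 are mainly cytosolic, Prdx3 is mitochondrial, Prdx5 is found in mitochondria, peroxisomes and cytosol, and Prdx4 lies in the endoplasmic reticulum (ER) or is secreted.

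Values are scaled counts, read counts brought to a common total by the authors (20007540 to 20016513 per library) and called CP20M. They are not divided by gene length, so a value compares libraries and not genes. The counted reads behind a library were estimated at between 19.4 M and 28.7 M (median 22.6 M). All 10 genes passed the filter on low values, as did 19370 of all genes. The 6 epithelial markers (Krt8, Krt18, Epcam, Cdh1, Vil1 and Cdx2) summed to between 85647 and 96678 in untreated libraries, whereas 5 fibroblast markers summed to between 2 and 17 in all 22 libraries, with Lum at 0 throughout. The labels call the cells stem cells. The 5 stem cell markers summed to between 32557 and 38876 in untreated libraries and to between 757 and 2747 after PAM from day 2, and goblet, Paneth and enterocyte markers were present in every group. The 7 enterocyte markers summed to between 124583 and 150845 in untreated libraries. After PAM from day 2 the sums were between 181660 and 238407, all above the controls. Taken singly, 2 of the 7 were called higher and 2 lower in that group (test below), beside 21.1% and 30.8% of all genes. The median log2 fold change of the 7 was -0.02. A pair of libraries stood apart for these genes. The first was line 4 after PAM from day 2. It held the lowest value of all 22 libraries for 7 of them (Prdx1, Prdx2, Prdx3, Prdx5, Prdx6, Cat and Sod2) and the highest for Gpx2, and its goblet markers summed to 17779 against 47788 and 47794 in the other libraries of that group. The other was line 4 after direct CAP for 24 h, which held the highest value of all 22 for 5 (Prdx1, Prdx2, Prdx3, Prdx5 and Prdx6). Several results that changed without either library are given with and without it, but not every such change is listed. In RNA from whole organoids, fewer cells of a type and less RNA per cell cannot be told apart.

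In untreated organoids, Prdx1 and Cat had the highest levels per kb of annotated exon and Sod2 and Prdx4 the lowest. Levels were compared as the scaled count per kb of exon, using all exons annotated for the gene, a length that exceeds any 1 transcript. That excess may differ between genes, so the order holds for this scale only and could differ per transcript. On this scale Prdx1 stood at 3299 ± 262 (SD, n = 4) and Cat at 3099 ± 475, with ranges that overlapped. Gpx2 followed at 2295 ± 146 and did not overlap with either neighbour in the order. Sod1 (1636 ± 196) overlapped with Prdx6 (1434 ± 98.5), and Prdx6 with Prdx2 (1340 ± 24.5). Prdx2 lay above Prdx3 (1226 ± 30.0) in every library, and Prdx3 overlapped with Prdx5 (1167 ± 88.5). Sod2 (248 ± 13.5) and Prdx4 (239 ± 39.3) overlapped with each other and lay below the other 8 genes. The 10008 exon bases of Sod2, against 1478 to 4804 in the other 9 genes, lower its level on this scale.

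**Figure D1:**
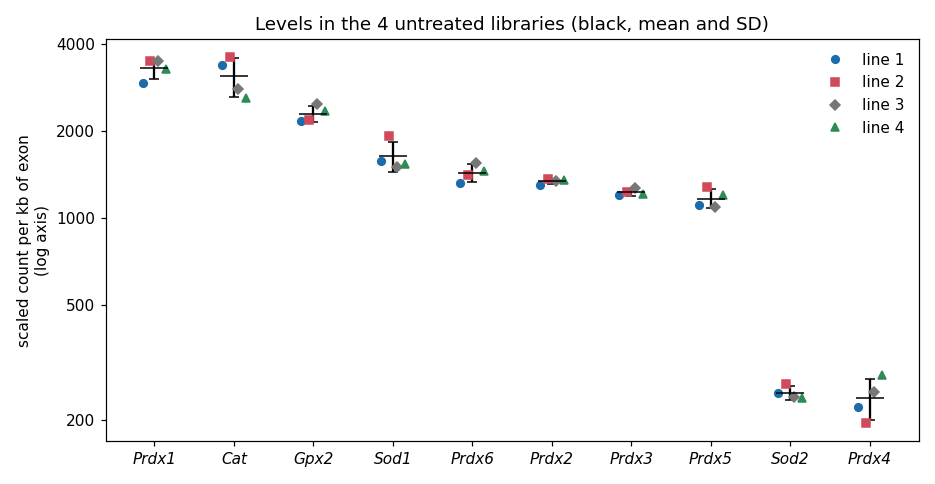
Scaled count per kb of exon (log axis) of the 10 genes in the 4 untreated libraries, ordered by mean; symbols are organoid lines and black marks the mean and SD. Prdx1 (3299) and Cat (3099) are highest, and Sod2 (248) and Prdx4 (239) lie below the other 8.

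Against untreated organoids, no member of the group passed the test after direct CAP, and members were called lower in each conditioned-media group, 7 of them after PAM from day 2. Both statements depended on the fit. With lines entered as a replicate block, Sod1 was called lower after direct CAP for 30 min and Prdx4 and Cat after 24 h, as described with each gene. Without line 4 of PAM from day 2, 6 members were called for that group and 7 for indirect CAP from day 2, where Prdx6 and Cat were gained. The share of all genes called in that fit is not given here. Prdx4 changed most in each of the 4 conditioned-media groups, and Prdx2 was the other gene that fell in all 4. Prdx5 was the only member called higher in any of the 6 comparisons. Gpx2 and Sod1 were not called in any of them. Genes were called at a Benjamini-Hochberg adjusted p under 0.05 over all 19370 genes in limma's test of log2(value + 1), and fold changes are on that scale.

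After direct CAP for 30 min, 0 of the 10 genes were called. An unadjusted p under 0.05 was found for 3 (Prdx4, Prdx2 and Sod1, all lower) and for 4133 of the 19370 genes tested. Of all genes, 0.0516% were called lower and 0.305% higher. After direct CAP for 24 h, 0 were called and 2 had an unadjusted p under 0.05 (Prdx4 lower, Prdx5 higher), against 9.12% of all genes called lower and 6.93% higher. Indirect CAP from day 1 lowered 2 members, Prdx2 and Prdx4, where 6.07% of all genes were called lower and 8.77% higher. These counts were the lowest of the 6 comparisons.

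PAM from day 1 lowered 5 members (Prdx2, Prdx3, Prdx4, Cat and Sod2) and raised 1 (Prdx5), against 24.1% of all genes called lower and 14.7% called higher. With indirect CAP from day 2, 5 members were lower (Prdx1, Prdx2, Prdx3, Prdx4 and Sod2) and 0 were higher, where all genes gave 19.9% lower and 19.6% higher. After PAM from day 2, 7 were lower (all but Prdx5, Gpx2 and Sod1), against 30.8% lower and 21.1% higher among all genes. The 6 comparisons share the untreated libraries, so that their counts are not independent.

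The median log2 fold change of the 10 genes was -0.20 after direct CAP for 30 min and -0.02 after 24 h, beside 0.04 and -0.065 over all genes. It was -0.22 with indirect CAP from day 1, -0.34 with PAM from day 1, -0.48 with indirect CAP from day 2 and -0.74 with PAM from day 2, where the medians of all genes were 0.03, -0.11, 0.02 and -0.09. Without line 4 of PAM from day 2 the median of the 10 genes in that group was -0.36, no longer below that of indirect CAP from day 2. In that fit Prdx2, Prdx3, Sod2 and Prdx4 changed by -0.76, -0.70, -0.71 and -2.55 and were still called. Without line 4 of direct CAP for 24 h the median in that group was -0.09. Scaling by median of ratios in place of the deposited totals moved the median of all genes by 0.12 for PAM from day 1 and 0.11 for PAM from day 2, and the other 4 comparisons by less than 0.1. At a stricter threshold (|log2 fold change| of 1 or more, adjusted p below 0.01), Prdx4 was the 1 member that passed. It did so in all 4 conditioned-media groups, where 1.79% (indirect CAP from day 1), 9.93% (PAM from day 1), 12% (indirect CAP started at day 2) and 20.2% (PAM from day 2) of all genes passed. Neither direct group held a member past that threshold, with 0.00516% of all genes past it at 30 min and 2.32% at 24 h.

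**Figure D2:**
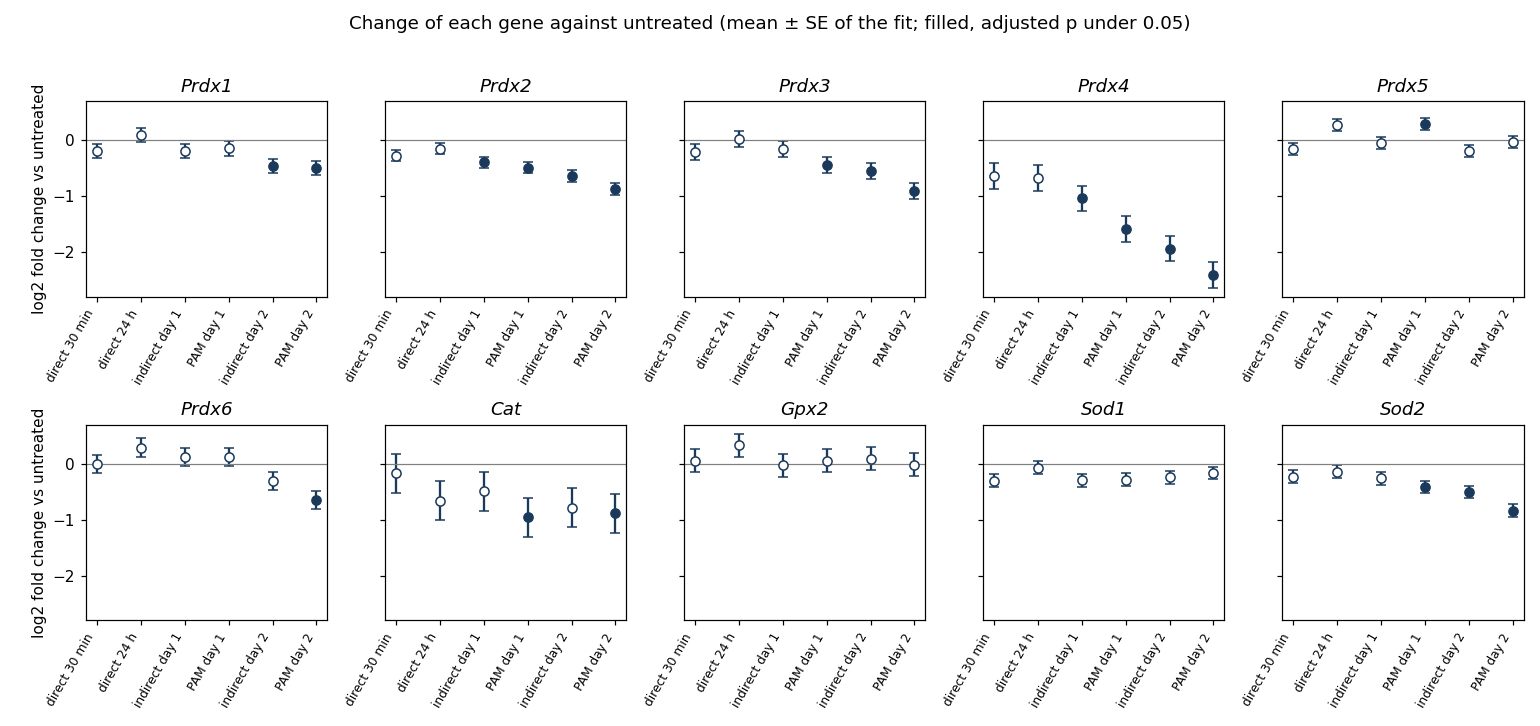
Log2 fold change of each gene against untreated in the 6 treated groups, with the SE of the fit; filled points have an adjusted p under 0.05. Prdx4 runs from -0.63 after direct CAP for 30 min to -2.40 after PAM from day 2, while Gpx2 lies between -0.02 and 0.34 and has no filled point.

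Prdx4, the peroxiredoxin of the ER that passes oxidizing equivalents from peroxide to protein disulfide isomerases, is encoded on chromosome X (155323918 to 155340754, minus strand, GRCm38, ENSMUSG00000025289). Its scaled counts in untreated lines 1 to 4 were 469, 411, 526 and 605. Lines 1, 2 and 4 gave 322, 361 and 283 after direct CAP for 30 min and 326, 231 and 401 after 24 h. All 6 direct-CAP libraries lay below all untreated libraries.

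With indirect CAP from day 1 the values of lines 1, 2 and 4 were 254, 236 and 236, and from day 2 they were 96, 114 and 199. PAM gave 155, 153 and 193 from day 1 and 101, 70 and 115 from day 2. Every conditioned-medium library was thus below every untreated one, and line 4, the highest untreated line, remained the highest or tied for lowest within these groups. The mean fell from 503 ± 82.8 (SD, n = 4) to 95.3 ± 23.0 (n = 3) after PAM from day 2.

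The fitted log2 fold change of Prdx4 was -1.04 ± 0.23 (SE) for indirect CAP from day 1 (adjusted p = 0.00803) and -1.58 ± 0.23 for PAM from day 1 (adjusted p = 6.68e-05). It was -1.93 ± 0.23 for indirect CAP from day 2 (adjusted p = 9.44e-06) and -2.40 ± 0.23, 5.29-fold lower, for PAM from day 2 (adjusted p = 2.46e-07). The direct groups showed -0.63 ± 0.23 at 30 min (adjusted p = 0.131) and -0.67 ± 0.23 at 24 h (adjusted p = 0.0521). With lines entered as a replicate block, the value at 24 h was -0.65 ± 0.20 and was called (adjusted p = 0.0271), as it was with pseudocount 10 (adjusted p = 0.0470) and without line 4 of that group (-0.86, adjusted p = 0.0496). Relative to the untreated library of its own line, Prdx4 was lower in 18 of 18 treated libraries, at 17.0% to 87.8% of it. Whether untreated lines 1 and 2 are paired with the right treated libraries is in doubt, which bears on such ratios and on the block.

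Among 11804 genes with a mean value of at least 100, those whose log2 values followed Prdx4 most closely over the 22 libraries were Armc10 (Pearson r = 0.98), Oip5 (0.97), which acts at centromeres, and Thg1l (0.96), which adds a guanosine to histidine tRNA. The 22 libraries share lines, groups and controls, and these values describe likeness only. The 5 proliferation markers (Mki67, Top2a, Pcna, Mcm6 and Ccnb1) were also lowest in the groups of day 2. Mean Prdx4 was 322 after direct CAP for 30 min and 319 after 24 h. The libraries of these groups overlapped for Prdx4, and neither group was called against untreated. The mean sum of the markers was 22410 at 30 min and 16278 at 24 h. The markers summed to between 20552 and 26645 in untreated libraries, 18122 and 24710 after direct CAP for 30 min, and 14379 and 18190 after 24 h. In the conditioned media from day 1 the sums were between 14636 and 20000 for indirect CAP and between 10787 and 16141 for PAM. From day 2 they were between 7819 and 9885 for indirect CAP and between 4077 and 7948 for PAM, the lowest of all groups. The part of cell composition in the change of Prdx4 was not tested.

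The sequence ahead of the RefSeq start of Prdx4 is shown because no other member changed as much, with those of Prdx1 and Cat for contrast. Such a window of 250 bases was at hand for 9 of the 10 genes, and the promoter reference used held none for Prdx6. Capitals mark matches on either strand to 4 motifs. CACGTG is an E-box, bound by basic helix-loop-helix factors. CCAAT is bound by NF-Y. The AP-1 site was searched as TGANTCA. The core of the antioxidant response element, the site of Nrf2, was searched as TGACNNNGC and can overlap it. Bases that GENCODE places in an exon of the gene were left off at the 3′ end.
Prdx4, chrX:155338475-155338710, minus strand, GRCm38.p6: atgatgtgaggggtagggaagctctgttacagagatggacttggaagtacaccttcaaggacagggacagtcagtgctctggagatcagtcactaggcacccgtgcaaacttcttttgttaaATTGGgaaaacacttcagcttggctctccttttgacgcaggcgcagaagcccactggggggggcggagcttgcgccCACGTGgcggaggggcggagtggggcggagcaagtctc
Prdx1, chr4:116685349-116685543, plus strand, GRCm38.p6: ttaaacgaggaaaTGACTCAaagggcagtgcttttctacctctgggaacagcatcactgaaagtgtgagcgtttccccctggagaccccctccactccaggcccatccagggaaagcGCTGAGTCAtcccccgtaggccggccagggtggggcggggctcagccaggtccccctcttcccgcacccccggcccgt
Cat, chr2:103485161-103485403, minus strand, GRCm38.p6: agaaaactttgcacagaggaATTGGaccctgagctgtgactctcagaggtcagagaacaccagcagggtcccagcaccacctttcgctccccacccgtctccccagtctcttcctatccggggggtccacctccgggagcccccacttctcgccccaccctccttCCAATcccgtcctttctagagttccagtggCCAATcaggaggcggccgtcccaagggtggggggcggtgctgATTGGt

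In the full windows, CACGTG was found in Prdx4 alone of the 9 genes, 52 bases ahead of the start, and in 6.02% of 32851 promoter windows of that length. Prdx1 held a TGACNNNGC core overlapping an AP-1 site (TGANTCA) and a further AP-1 site upstream. TGACNNNGC was present in 2 of the 9 genes (Prdx1 and Sod1) and in 10.2% of all windows, and TGANTCA in 1 of the 9 and 6.75% of all. Cat held 4 CCAAT matches. CCAAT was found in 5 of the 9 genes and 33.9% of all windows, and GGGCGG (GC box, not capitalised above) in 7 of the 9 and 32.7%. Prdx2 had no match to any of these motifs. A match describes letters only, and binding was not measured.

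**Figure D3:**
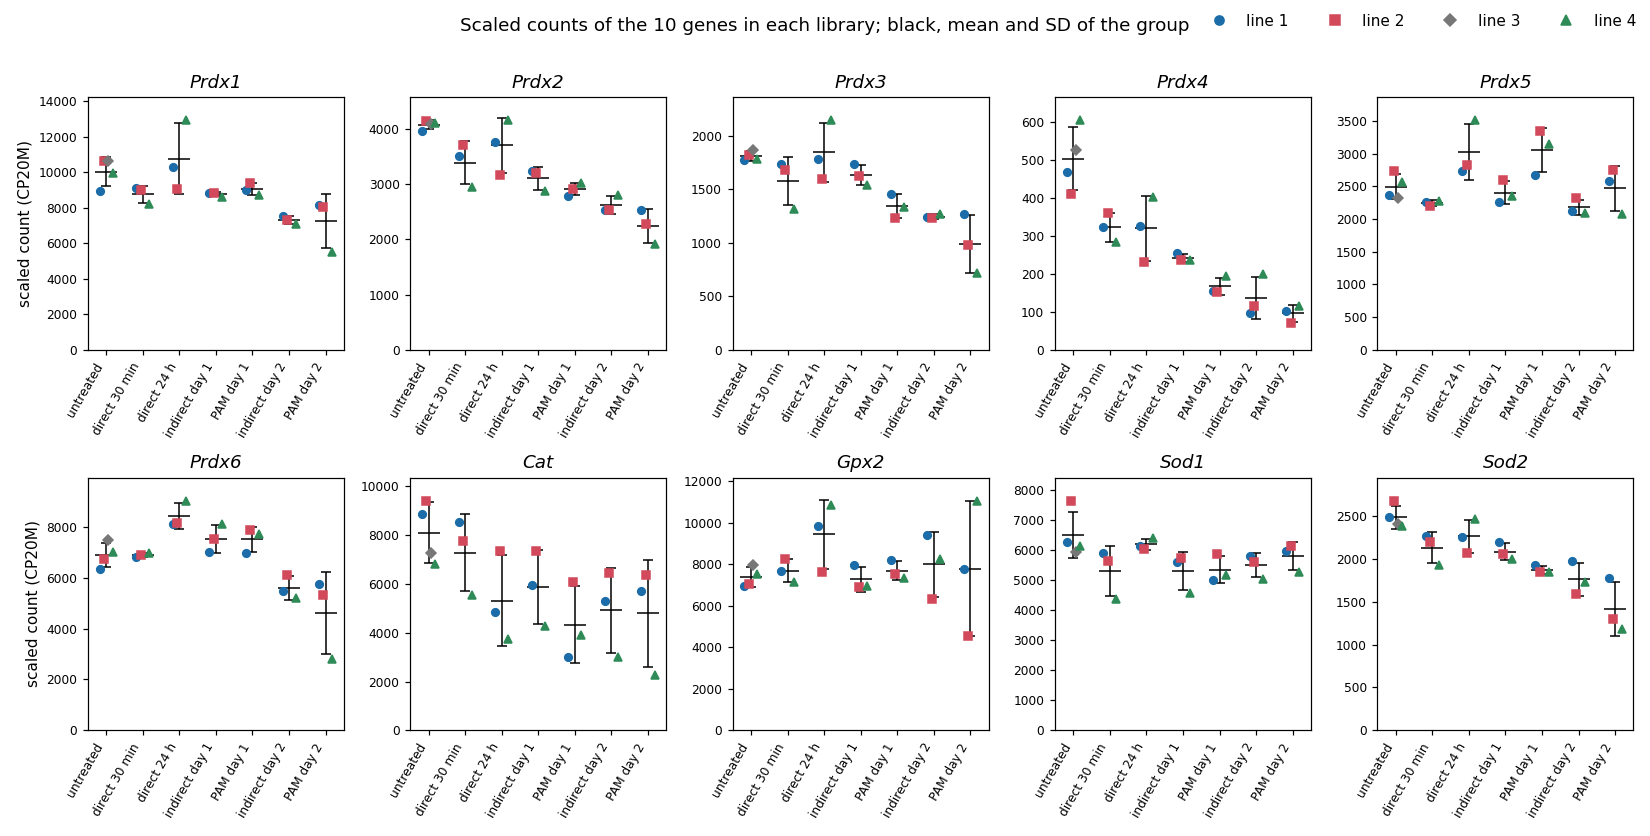
Scaled count (CP20M, axes from 0) of the 10 genes in each of the 22 libraries, by group; symbols are organoid lines and black marks the group mean and SD. Prdx4 falls from a mean of 503 to 95.3 over the groups shown, Prdx2 from 4088 to 2248, and Gpx2 spreads from 4533 to 11073 within PAM from day 2.

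Prdx2, a cytosolic peroxiredoxin abundant also in red cells, fell in all 4 conditioned-media groups. Untreated lines 1 to 4 gave 3979, 4147, 4102 and 4122, the narrowest spread of the 10 genes (SD 1.83% of the mean). Lines 1, 2 and 4 gave 3246, 3212 and 2875 with indirect CAP from day 1 and 2798, 2917 and 3027 with PAM from day 1. All 6 lay below the controls.

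From day 2, the Prdx2 values of lines 1, 2 and 4 were 2542, 2533 and 2808 with indirect CAP and 2536, 2289 and 1920 with PAM. Log2 fold changes were -0.40 ± 0.10 (SE) and -0.49 ± 0.10 for indirect CAP and PAM from day 1, with adjusted p values of 0.0180 and 0.00124. They were -0.64 ± 0.10 and -0.87 ± 0.10 from day 2 (adjusted p = 0.000138 and 2.03e-06). In the direct groups they were -0.27 ± 0.10 at 30 min (adjusted p = 0.143) and -0.15 ± 0.10 at 24 h (adjusted p = 0.347), where 1 library, line 4 with 4172, exceeded every control. Without line 4, the value for indirect CAP from day 1 was -0.34 and no longer called (adjusted p = 0.109). Exons of Prdx2 (chromosome 8) overlap on the other strand with those of Rnaseh2a over 177 bases and of Junb over 173, of 3050. Rnaseh2a fell by 1.14 and Junb rose by 1.24 on the log2 scale after PAM from day 2, and whether the counting used strand is not given in the sources used here.

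Prdx1, the cytosolic peroxiredoxin with the highest level per kb of annotated exon in the family, was called in both groups of day 2 only. Untreated libraries ranged from 8941 to 10647 (mean 10039 ± 797, n = 4). Lines 1, 2 and 4 gave 7555, 7308 and 7098 with indirect CAP from day 2 and 8157, 8058 and 5486 with PAM from day 2, all below the controls. The log2 fold change was -0.45 ± 0.13 (SE) for indirect CAP (adjusted p = 0.00850). For PAM it was -0.49 ± 0.13 (adjusted p = 0.00314), and -0.30 without the library of line 4 (adjusted p = 0.0320). In the 4 other treated groups the change lay between -0.19 and 0.09, the latter after direct CAP for 24 h, where it was -0.06 without line 4, and the 12 libraries ranged from 8201 to 12952.

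Prdx6, a cytosolic peroxiredoxin that also has phospholipase activity, fell after PAM from day 2 alone. Its untreated values were 6338, 6753, 7470 and 7000, and lines 1, 2 and 4 gave 5771, 5309 and 2790 after PAM from day 2. All 3 lay below the controls, line 4 far below the others. The log2 fold change was -0.64 ± 0.16 (SE, adjusted p = 0.00317). Without line 4 of that group it was -0.31 (adjusted p = 0.00987), and in a fit of these 2 groups alone it was not called (adjusted p = 0.0509). Indirect CAP from day 2 gave 5485, 6111 and 5203, below every control as well, with a change of -0.30 ± 0.16 that was not called (adjusted p = 0.155) except in a fit of the 2 groups alone (adjusted p = 0.0223). After direct CAP for 24 h the 3 libraries held 8121, 8168 and 9029, above every control, and the change of 0.29 ± 0.16 was not called either (adjusted p = 0.238). When the library of line 4 after PAM from day 2 was left out, the SE over all groups shrank and both of these were called, the rise with an adjusted p of 0.0171 and the fall with 0.00629. The genes most like Prdx6 over the 22 libraries were Cyb5a (r = 0.96), a cytochrome of lipid metabolism in the ER, Mgat4c (0.95) and Prr15l (0.95).

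Prdx3 and Sod2, the peroxiredoxin and the superoxide dismutase of the mitochondrial matrix, were called in the same 3 groups. Untreated lines 1 to 4 held 1773, 1819, 1871 and 1783 for Prdx3 and 2482, 2678, 2400 and 2384 for Sod2. PAM from day 1 gave 1455, 1231 and 1337 in lines 1, 2 and 4 for Prdx3 and 1923, 1848 and 1844 for Sod2. Neither gene overlapped with its controls.

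Indirect CAP from day 2 gave 1239, 1227 and 1268 for Prdx3 and 1971, 1591 and 1729 for Sod2. PAM from day 2 gave 1264, 978 and 720 for Prdx3 and 1777, 1297 and 1180 for Sod2. Line 4 was again lowest after PAM from day 2, and both genes lay below their controls in all libraries.

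For Prdx3 the log2 fold change was -0.44 ± 0.14 (SE) for PAM from day 1 (adjusted p = 0.0215), -0.54 ± 0.14 for indirect CAP from day 2 (adjusted p = 0.00621) and -0.91 ± 0.14 for PAM from day 2 (adjusted p = 4.09e-05). For Sod2 the values were -0.41 ± 0.11 (adjusted p = 0.00835), -0.50 ± 0.11 (adjusted p = 0.00216) and -0.83 ± 0.11 (adjusted p = 9.46e-06). The call of Prdx3 for PAM from day 1 was lost without line 2 (-0.38, adjusted p = 0.0851) or line 4 of that group (-0.44, adjusted p = 0.0585), and with median-of-ratios scaling (-0.32, adjusted p = 0.0691). Neither gene was called after direct CAP or indirect CAP from day 1, where Prdx3 changed by -0.21 to 0.02 and Sod2 by -0.25 to -0.14. In a fit of indirect CAP from day 1 and untreated alone, Sod2 was called lower (-0.25, adjusted p = 0.0415). Without line 4 of direct CAP for 24 h the change of Prdx3 in that group was -0.10. Transcripts of the mitochondrial genome took 1.24% to 1.54% of the counts in untreated libraries. They took 0.789% to 1.02% with PAM from day 1, 0.720% to 0.826% with indirect CAP from day 2 and 0.668% to 0.881% with PAM from day 2, all below the controls, and their part in these results was not tested.

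Prdx5, a peroxiredoxin of several compartments, was the member of the family called higher. Untreated lines 1 to 4 gave 2364, 2736, 2328 and 2561. Lines 1, 2 and 4 gave 2681, 3344 and 3146 with PAM from day 1 and 2733, 2832 and 3519 after direct CAP for 24 h. In each of these groups at least 2 libraries exceeded every control, and direct CAP for 30 min stood lower, at 2266, 2195 and 2271.

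The log2 fold change of Prdx5 was 0.29 ± 0.11 (SE) for PAM from day 1 (adjusted p = 0.0411) and 0.27 ± 0.11 for direct CAP for 24 h (adjusted p = 0.0926). The former was not called with a replicate block for the line (0.26, adjusted p = 0.0626), with no filter on low values (adjusted p = 0.0777), or without untreated line 1, 3 or 4 or line 2 or 4 of its own group (adjusted p = 0.0569 to 0.170). In the groups of day 2 the change was -0.20 ± 0.11 for indirect CAP and -0.02 ± 0.11 for PAM, neither called. Exons of Prdx5 (chromosome 19) share 409 of 2139 bases with those of Trmt112 on the other strand. Trmt112 fell by 0.65 on the log2 scale with PAM from day 1 (adjusted p = 0.00184), the direction opposite to Prdx5.

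Cat, the peroxisomal enzyme that splits hydrogen peroxide into water and oxygen, spread nearly as much between lines as between groups, and was called lower after PAM. Untreated lines 1 to 4 gave 8875, 9412, 7286 and 6820. Lines 1, 2 and 4 gave 8551, 7757 and 5530 after direct CAP for 30 min and 4839, 7361 and 3729 after 24 h. Indirect CAP from day 1 gave 5969, 7329 and 4290. Line 2 was the highest and line 4 the lowest in both of the latter groups.

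PAM from day 1 gave 2984, 6076 and 3925 for lines 1, 2 and 4. From day 2, indirect CAP gave 5314, 6427 and 3004 and PAM gave 5714, 6370 and 2278. These 9 libraries all lay below the 4 controls. On the log2 scale line 2 stood 0.43 above the mean of its group, averaged over the 6 treated groups, and line 4 stood 0.48 below it, each with the same sign in 6 of 6 groups. The range between lines, 0.91, compared with 0.95 between the means of the 7 groups, and in the other 9 genes the lines spanned at most 0.38.

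The log2 fold change of Cat was -0.95 ± 0.35 (SE) for PAM from day 1 (adjusted p = 0.0357) and -0.88 ± 0.35 for PAM from day 2 (adjusted p = 0.0401). Indirect CAP gave -0.49 ± 0.35 from day 1 (adjusted p = 0.337) and -0.78 ± 0.35 from day 2 (adjusted p = 0.0817), and direct CAP for 24 h gave -0.65 ± 0.35 (adjusted p = 0.209). With a replicate block for the line, the SE was 0.22 and Cat was also called after direct CAP for 24 h (-0.70, adjusted p = 0.0248) and indirect CAP from day 2 (-0.82, adjusted p = 0.00506). The latter was also called in a fit of the 2 groups alone (adjusted p = 0.0311) and without line 4 of PAM from day 2 (adjusted p = 0.0366). Each of the 18 treated libraries lay below the untreated library of its own line, at 33.4% to 96.4% of it. The doubt over the pairing of untreated lines 1 and 2 applies to the block and to these ratios. In the fit without the block both PAM calls were lost with median-of-ratios scaling (adjusted p = 0.0627 and 0.0674 from day 1 and day 2) and with no filter (0.0567 and 0.0618). For PAM from day 2 it was also lost in a fit of the 2 groups alone (adjusted p = 0.0585).

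Single libraries also decided the calls of Cat. For PAM from day 1 the call was lost without untreated line 1 (-0.91, adjusted p = 0.0737) or line 2 (-0.88, adjusted p = 0.0809), and without line 1 (-0.72, adjusted p = 0.161) or line 4 of its own group (-0.91, adjusted p = 0.0971). For PAM from day 2 it was lost without untreated line 1, 2 or 3 (-0.83, -0.80 and -0.93, adjusted p = 0.0803, 0.0877 and 0.0510), and without line 4 of its own group the change was -0.41 (adjusted p = 0.320). The genes most like Cat over the 22 libraries were Khk (r = 0.97), the fructose kinase, Prlr (0.97), the prolactin receptor, and Fahd1 (0.97).

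**Figure D4:**
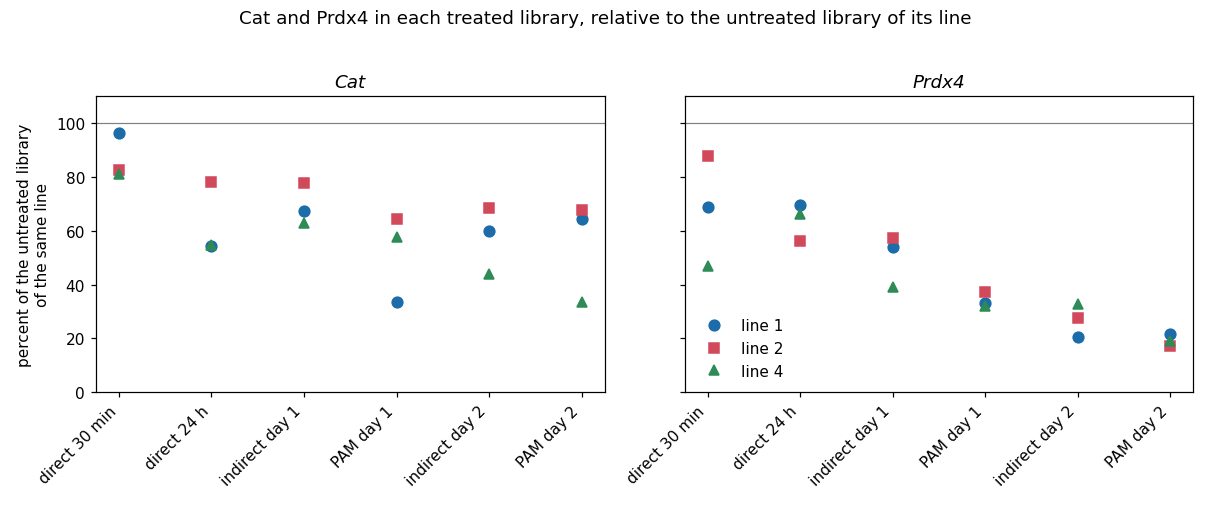
Scaled count of Cat (left) and Prdx4 (right) in each treated library as a percent of the untreated library of the same line (axis from 0; the line at 100 marks no difference). Every point lies below 100. Cat spans 33.4% to 96.4% and Prdx4 17.0% to 87.8%.

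Sod1 and Gpx2 were not called in any comparison with untreated. Sod1, the copper and zinc enzyme, held 6276, 7641, 5946 and 6115 in untreated lines 1 to 4, line 2 being highest. Its treated libraries ranged from 4366 to 6395, and in 4 groups (direct CAP for 30 min, both media from day 1, and indirect CAP from day 2, in that order below) all 3 libraries lay below every control. The log2 fold changes were -0.30, -0.29, -0.28 and -0.24 in these groups (SE 0.115 in each), with adjusted p values of 0.153, 0.0880, 0.0648 and 0.108. With a replicate block for the line, they were -0.34, -0.33, -0.32 and -0.28 (SE 0.097 in each) and all 4 were called (adjusted p = 0.0420, 0.0186, 0.0133 and 0.0254). The doubt over the pairing of untreated lines 1 and 2 bears on these 4 calls, since the high control of Sod1 was line 2. Gpx2 held 6975, 7061, 7988 and 7549 in the controls and spread widely after PAM from day 2, with 7790, 4533 and 11073 in lines 1, 2 and 4. Its largest change was 0.34 ± 0.21 (SE) after direct CAP for 24 h (adjusted p = 0.276), where the libraries held 9842, 7611 and 10882. In the other 5 comparisons it lay between -0.02 and 0.10, and the sign turned with the setting for PAM from day 2 and for indirect CAP given from day 1. After PAM from day 2 the change was -0.01, and without line 4 of that group it was -0.31 (adjusted p = 0.178). A pseudogene of Gpx2 (Gpx2-ps1) had values of 1 to 25 across the libraries.

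Between treated groups, PAM from day 2 stood lower than PAM from day 1 in 5 of the 10 genes, against 21.9% of all genes called in either direction. Prdx6 differed by -0.77 ± 0.18 (SE) on the log2 scale (adjusted p = 0.00505), Prdx4 by -0.82 ± 0.25 (adjusted p = 0.0224) and Prdx3 by -0.48 ± 0.15 (adjusted p = 0.0326). Prdx2 differed by -0.38 ± 0.11 (adjusted p = 0.0188) and Sod2 by -0.42 ± 0.12 (adjusted p = 0.0184). The 2 groups did not overlap for these genes except for Prdx3, where line 1 from day 2 (1264) exceeded line 2 from day 1 (1231). With a replicate block for the line, Prdx5 was called as well (-0.31 ± 0.11, adjusted p = 0.0346). In a fit of these 2 groups alone, 0 of the 10 genes were called, and 0 of all genes. The call of Prdx4 was lost with quantile normalization (-0.68, adjusted p = 0.0709) and that of Prdx3 with no filter (adjusted p = 0.0559). Without line 4 from day 2, the calls of Prdx4 (-0.97, adjusted p = 0.0214) and Prdx6 (-0.44, adjusted p = 0.00613) held, and those of Prdx2 (-0.27), Prdx3 (-0.27) and Sod2 (-0.30) were lost (adjusted p = 0.0994, 0.182 and 0.0981).

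Other single libraries also bore on this comparison. Without line 4 of PAM from day 1, the adjusted p was 0.0648 for Prdx2, 0.0749 for Prdx3 and 0.0875 for Prdx4. Without line 2 of PAM from day 2 it was 0.0707 for Prdx3, 0.117 for Prdx4 and 0.0770 for Sod2, and without line 1 of PAM from day 1 it was 0.103 for Prdx3 and 0.0518 for Sod2. For Prdx6 the call held without any 1 library.

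Prdx5 was higher after direct CAP for 24 h than for 30 min, by 0.42 ± 0.12 (SE) on the log2 scale (adjusted p = 0.0472), and was the 1 member called in that comparison, against 4.47% of all genes. All 3 libraries of the later group exceeded all 3 of the earlier. Leaving out single libraries ended the call in 16 of 22 fits (adjusted p = 0.0508 to 0.317, the highest without line 4 of the 24 h group, where the change was 0.31). It was also lost with no filter (adjusted p = 0.0851) and in a fit of the 2 groups alone (adjusted p = 0.204), and was kept with a replicate block for the line (adjusted p = 0.0141).

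The 5 remaining comparisons of treated groups called 0 members. Both media from day 1 (indirect CAP, then PAM) were each set against direct CAP for 24 h, where 0% of all genes were called. Of the 10 genes, 2 and 4 had an unadjusted p under 0.05, and 2526 and 2720 of all genes did. PAM and indirect CAP from day 1 differed in 0 members at 0.589% of all genes called. There 2 members and 4020 of all genes had an unadjusted p under 0.05. With a replicate block for the line, Prdx4 was called lower with PAM from day 1 than with direct CAP for 24 h (-0.90 ± 0.20, adjusted p = 0.0418). In the same fit Prdx5 was higher with PAM than with indirect CAP from day 1 (0.34 ± 0.11, adjusted p = 0.0470).

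Indirect CAP from day 2 and from day 1 differed in 0 members at 3.32% of all genes called. There 4 members and 3540 of all genes had an unadjusted p under 0.05. Prdx4 came nearest (-0.89 ± 0.25, adjusted p = 0.0513) and was called with the block (adjusted p = 0.0106). PAM and indirect CAP from day 2 gave 0 called members and 0% of all genes, with 3 members and 3019 of all genes at an unadjusted p under 0.05. Differences between the groups of day 1 and of day 2 cannot be told apart from the time left before collection. Both were taken at the same endpoint. Nor can they be told apart from the age of the medium, which was freshly made for day 1 and a day old for day 2. The groups of day 1 also spent their last day in new medium.

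Genes that work with these enzymes were taken from 5 lists. Some genes outside the naming rule are named too, after their values were seen. In the ER, where Prdx4 acts with the Ero1 oxidases and protein disulfide isomerases, 12 of 14 listed genes could be tested. None was called after direct CAP for 30 min, 5 were lower after direct CAP for 24 h and after indirect CAP from day 1, 6 with PAM from day 1, and 7 in each group of day 2. These were 41.7%, 41.7%, 50.0%, 58.3% and 58.3% of the 12, where 9.12%, 6.07%, 24.1%, 19.9% and 30.8% of all genes were called lower. At most 1 was higher in any group. It was the sulfhydryl oxidase Qsox1 with PAM from day 1 (0.82) and the oxidase Ero1l in both groups of day 2 (1.33 and 1.10). Ero1lb, also an Ero1 oxidase, was lower after PAM from day 2 (-0.64, adjusted p = 0.0171). Vkorc1 was lower with PAM from day 1 and in both groups of day 2, with -1.975 after PAM from day 2 (adjusted p = 0.000878). The median log2 fold change of the 12 was -0.72 after PAM from day 2, beside -0.09 over all genes.

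The isomerases Pdia3, Pdia4, Pdia5, Pdia6 and Txndc5 were lower in 5 of the 6 groups. Pdia5 went from 729 ± 99.1 (SD, n = 4) in untreated libraries to 199 ± 78.8 (n = 3) with PAM from day 1 and 207 ± 51.9 with PAM from day 2, log2 fold changes of -1.93 and -1.83 (adjusted p = 4.35e-05 and 1.84e-05). After PAM from day 2, Txndc5 changed by -1.63 (adjusted p = 7.95e-07), Pdia6 by -1.23 (adjusted p = 1.51e-06) and Pdia4 by -0.84 (adjusted p = 1.05e-07). P4hb, another isomerase, lay between -0.16 and 0.19 and was not called in any group. Goblet and Paneth cells are rich in ER. Goblet markers summed to between 77863 and 135755 in untreated libraries, to between 83023 and 187137 with PAM from day 1 and to between 17779 and 47794 with PAM from day 2. Paneth markers summed to between 29440 and 39169, 4089 and 17653, and 4771 and 20469 in the same groups. Their part in the change of Prdx4 and of these genes was not tested.

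**Figure D5:**
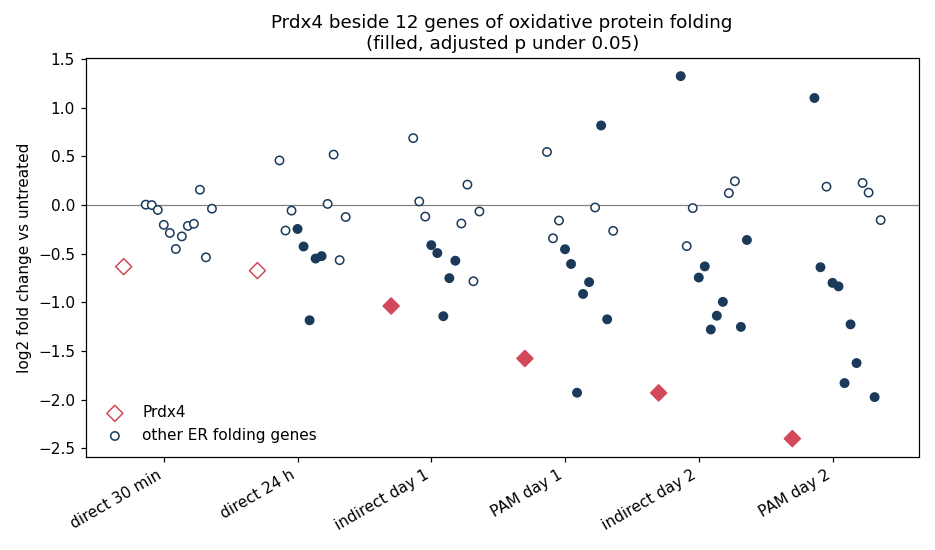
Log2 fold change against untreated of Prdx4 (diamonds) and of 12 genes of oxidative protein folding in the ER (circles) in the 6 treated groups; filled symbols have an adjusted p under 0.05. Prdx4 is lower than all 12 in both groups of day 2 (-1.93 and -2.40), while Pdia5 lies below it with direct CAP for 24 h and both media from day 1.

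Of the 15 genes that recycle peroxiredoxins or use thioredoxin and glutaredoxin, all could be tested. In order of the 6 groups (direct CAP for 30 min and 24 h, indirect CAP and PAM from day 1, indirect CAP and PAM from day 2), 0, 1, 2, 6, 7 and 8 were lower and 1, 1, 1, 2, 1 and 2 were higher. The first 3 groups had 0%, 6.67% and 13.3% of the 15 lower, beside 0.0516%, 9.12% and 6.07% of all genes. Each had 6.67% higher, beside 0.305%, 6.93% and 8.77%. The last 3 groups had 40.0%, 46.7% and 53.3% lower, beside 24.1%, 19.9% and 30.8% of all genes. They had 13.3%, 6.67% and 13.3% higher, beside 14.7%, 19.6% and 21.1%. The stress-induced sestrin Sesn2 rose in 5 groups, from 740 ± 42.2 (SD, n = 4) to 1631 ± 337 (n = 3) after direct CAP for 24 h (log2 fold change 1.12, adjusted p = 0.000866), whereas Sesn3 fell in these 5 groups, by between 1.09 (indirect CAP from day 2) and 1.41 (direct CAP for 24 h), from 2215 ± 306 to 838 ± 149 in the latter. Sesn1 fell in 3 groups, by 0.93 with PAM from day 1. The mitochondrial glutaredoxin Glrx5 fell in 3, by 0.59 with PAM from day 2 (adjusted p = 0.00112). The 1 gene called at 30 min was the thioredoxin inhibitor Txnip (0.67, adjusted p = 0.0420), which was lower with indirect CAP and PAM in the groups of day 2 (-0.43 and -0.62, adjusted p = 0.0176 and 0.000863).

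Of 7 genes that load or regulate these enzymes, at most 3 were lower and 2 higher in any group. After PAM from day 2, 42.9% were lower, beside 30.8% of all genes. With indirect CAP from day 1, 28.6% were higher, beside 8.77%. Ccs, the chaperone that brings copper to Sod1, fell in 3 groups. It went from 660 ± 33.4 (SD, n = 4) to 464 ± 62.9 (n = 3) with PAM from day 1, 422 ± 22.1 with indirect CAP from day 2 and 394 ± 71.6 with PAM from day 2 (log2 fold change -0.76, adjusted p = 5.98e-05). Keap1, which holds the transcription factor Nrf2 in check, fell in 4 groups, by 0.58 with PAM from day 2 (adjusted p = 3.38e-05). Nfe2l2, the gene of Nrf2, was higher after direct CAP for 24 h (0.36, adjusted p = 0.0489) and indirect CAP from day 1 (0.39, adjusted p = 0.0353) and lower after PAM from day 2 (-0.42, adjusted p = 0.00696). Its partner Mafg rose in 3 groups, by 0.84 with indirect CAP from day 2.

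Peroxisomal genes, the surroundings of Cat, were called lower at shares near those of all genes in the groups with most calls. Of 33 tested among 35 listed, 0, 1, 0, 8, 6 and 11 were lower and 0, 3, 2, 7, 5 and 6 higher in the order of groups given above. In the first 3 groups 0%, 3.03% and 0% were lower, beside 0.0516%, 9.12% and 6.07% of all genes. There 0%, 9.09% and 6.06% were higher, beside 0.305%, 6.93% and 8.77%. With PAM from day 1, 24.2% were lower and 21.2% higher, beside 24.1% and 14.7% of all genes. With indirect CAP from day 2 the shares were 18.2% and 15.2%, beside 19.9% and 19.6%, and with PAM from day 2 33.3% and 18.2%, beside 30.8% and 21.1%. The median log2 fold change was -0.09 after PAM from day 2, beside -0.09 over all genes. Agps, of ether lipid synthesis, rose in 4 groups, by 0.76 with PAM from day 1 (adjusted p = 0.00249), and Acox3, a peroxisomal oxidase, in 3. Scp2, a lipid carrier and thiolase, fell in 3 groups, by 0.99 with indirect CAP from day 2 (adjusted p = 0.00189). Of 10 other scavengers listed, 3 could be tested. Gpx4, which reduces lipid peroxides, was called after PAM from day 2 (0.36, adjusted p = 0.0475), as was the secreted Gpx3 (1.08, adjusted p = 0.0160), at values of 34.0 ± 15.6 (SD, n = 4) and 70.0 ± 23.6 (n = 3). In the other 5 comparisons limma called 0 of the 3.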

How the data were processed

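RNA was sequenced as paired-end reads of 100 bases from libraries made with the Ovation SoLo kit per the labels. The authors trimmed reads with Trimmomatic 0.36, aligned them to GRCm38 with STAR 2.5.3a and counted them per gene with HTSeq 0.9.1 (submitters' processing notes). The deposited table gives each gene a score, its count scaled by the authors to a common library total (20007540 to 20016513) as whole numbers, with low values spaced as if rounded up. Reads per library were estimated from the spacing of low values, which was tested on simulated data.

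Values were tested as log2(value + 1) by limma 3.58.1 (R 4.3.3) with an intensity trend, over 19370 genes (3 or more of the 22 libraries at 10 or above), all 7 groups in 1 fit with 15 residual degrees of freedom, in 13 contrasts. Counts were not used here, so that the count test of the study was not run. The fit was tested on simulated data. The members and gene lists were chosen with earlier results of these data known. Named genes were all members; up to 4 per list, those called in the most comparisons with untreated, ties broken by the largest median absolute change; the 3 genes most correlated with each of the 3 members with the widest range of group means; and pseudogenes with a mean of at least 10. Not every gene that this rule picks is reported here, and some genes outside it are named.

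Same-numbered libraries come from the same line, and so the same mouse. After group means were removed, treated libraries of the same line correlated with a median of 0.564 (0.219 to 0.806 over 45 pairs) and those of different lines with -0.33. The pairing of untreated lines 1 and 2 is in doubt, since their medians were 0.0751 and 0.132 with their own line and 0.541 and 0.353 with treated line 2 and line 1. No 2 of the 24 replicate pairs were copies. The labels give lines 1 and 2 passages 12 and 14, and lines 3 and 4 passage 4. Matched by passage, lines 1 and 2 would be male and lines 3 and 4 female in the study's methods, which give the latter passage 2. Line 4 is the only line of passage 4 in the treated groups, so line, passage and sex cannot be told apart there. Genes were matched by identifier to GENCODE vM21 (52403 of 52636, 99.6%). Promoters are from RefSeq on GRCm38.p6. Plots were drawn in matplotlib 3.10.9 (Python 3.11.15). The precision of a value rests on 3 or 4 libraries.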

Additional observations from a re-analysis of the deposited data

Results flagged for a closer look

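Pairs of treated groups differed in 6 results, each by limma's test of the difference between the groups. Prdx5 was higher after direct CAP for 24 h than for 30 min by 0.42 on the log2 scale. After PAM from day 2, in comparison with PAM from day 1, the log2 differences were -0.38 for Prdx2, -0.48 for Prdx3, -0.82 for Prdx4, -0.77 for Prdx6 and -0.42 for Sod2. No untreated library stood apart from the other 3 in any of the 10 genes by Dixon's test, and groups of 3 were not tested for this.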

How the results depend on the processing

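The 26 called changes of single members kept their sign in all 156 values from other settings and all 572 from fits that left out 1 library. Pseudocount 10 kept all 26 calls, quantile normalization and the replicate block 25 each, median-of-ratios scaling 23, no filter 21 and separate fits of the 2 groups 18. Leaving out 1 library ended a call in 43 of 572 fits. Counts of called members that moved by over 1.5 times were as follows. With the replicate block, 1 member was called for direct CAP for 30 min against untreated and 2 for 24 h (0 without it), and 1 each for PAM from day 1 against direct CAP for 24 h, PAM against indirect CAP from day 1, and indirect CAP from day 2 against day 1 (0 without it). It changed no other count by as much, and the calls it changed are given beside each gene. With pseudocount 10, 1 was called for direct CAP for 24 h and 1 for indirect CAP from day 2 against day 1. With no filter, 0 were called for direct CAP for 24 h against 30 min. Separate fits called 0 for that comparison, 1 for indirect CAP from day 2 against day 1, and 0 for PAM from day 2 against day 1. The cause was not tested. Counts over all genes moved as well. With the block they went from 69 to 1608 for direct CAP for 30 min, 3110 to 5031 for 24 h and 2873 to 5404 for indirect CAP from day 1. Between treated groups the block took them from 866 to 4027 (direct CAP, 24 h against 30 min), 0 to 212 (PAM from day 1 against direct CAP for 24 h), 114 to 2384 (PAM against indirect CAP, day 1), 643 to 2099 (indirect CAP, day 2 against day 1) and 0 to 1406 (PAM against indirect CAP, day 2). In separate fits they were 1 for direct CAP for 30 min, 44 for PAM from day 1 against direct CAP for 24 h, and 0 for direct CAP for 24 h against 30 min, PAM from day 2 against day 1 (4241 in the joint fit) and PAM against indirect CAP, day 1. The lowest value of any of the 10 genes was 70, against a filter of 10.

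Leaving out each library in turn gave counts against untreated of 0 to 0 for direct CAP for 30 min, 0 to 2 for 24 h, 1 to 2 for indirect CAP and 3 to 7 for PAM started at day 1, and 5 to 7 and 6 to 7 when started at day 2. Between treated groups it gave 0 to 2 for direct CAP for 24 h against 30 min, 0 to 0 and 0 to 2 for indirect CAP and PAM from day 1 against it, 0 to 0 for PAM against indirect CAP from day 1, 0 to 2 for indirect CAP from day 2 against day 1, 2 to 7 for PAM from day 2 against day 1, and 0 to 2 for PAM against indirect CAP from day 2. The count of 3 for PAM from day 1 was without line 4 of that group. The count of 2 for PAM from day 2 against day 1 was without line 4 of either group, and it was 3 without line 2 from day 2. The shares of all genes called in these fits are not given here, so these counts have no background beside them.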
